A study of Mus musculus with 48 samples.

Results

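The 10 genes described here are the CC and CXC chemokine genes Ccl2, Ccl3, Ccl4, Ccl6, Ccl7, Ccl9, Ccl12, Ccl22, Cxcl2 and Cxcl16. The choice was by symbol from the 49568 genes of a read count table, with earlier results of these data known. These genes were followed through 24 of the table's 48 libraries of RAW264.7, a mouse macrophage line made by transformation with a leukaemia virus. Cells had been kept for 72 h, with 1 change of medium at 48 h, in 8 groups of 3 libraries each. The groups received PBS, 1 of 3 short synthetic peptides (100 µg/ml), the cytokine IFN-γ (5 ng/ml, IFNy in the labels), or a peptide together with IFN-γ at those doses. The peptides, called LE, SE and PE, were copied from the same stretch of the human HLA-DR β chain as encoded in turn by an allele tied to lupus risk, an allele tied to rheumatoid arthritis risk and a protective allele. A linear peptide added to a mouse cell line is a model of the human epitope outside its folded molecule. The study asked what each peptide does to macrophages when IFN-γ is present. It compared peptide plus IFN-γ against IFN-γ alone (Model A) and against the peptide alone (Model B).

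Chemokines are small secreted proteins that guide leukocytes along a gradient. CC chemokines carry adjacent cysteines near their start and CXC chemokines have a residue between them, and each binds 1 or more G protein-coupled receptors on the cells it attracts. Macrophages make them after sensing microbes or cytokines, and NF-κB and AP-1 are well-known inducers of their transcription. By receptor, Ccl2, Ccl7 and Ccl12 act on CCR2 and draw monocytes. Ccl3, Ccl6 and Ccl9 act on CCR1, and Ccl4 is a close relative of Ccl3 that attracts monocytes and T cells. Ccl22 acts on CCR4 of T cells, Cxcl2 on CXCR2 of neutrophils, and Cxcl16 on CXCR6 of T cells. CXCL16 is made as a membrane protein that the protease ADAM10 can release.

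On GRCm38 with GENCODE M21, 8 of the 10 genes lay on chromosome 11. The CCR2 ligand genes Ccl2, Ccl7 and Ccl12 were on the plus strand within 67.8 kb, from position 82035571 to 82103400. Ccl9, Ccl6, Ccl3 and Ccl4 lay within 91.8 kb, from 83572919 to 83664683, with Ccl4 on the plus strand and the other 3 on the minus strand. Cxcl16 was apart from both clusters, at 70453983 to 70459984 on the minus strand. Cxcl2 was on chromosome 5 at 90903871 to 90905938 and Ccl22 on chromosome 8 at 94745590 to 94751699, both on the plus strand. Genes on the opposite strand overlapped 3 of the 10. Over the 24 libraries Gm17268, which overlaps Ccl2, had 0 counts, E230016K23Rik, which overlaps Ccl6, had 0 to 13 counts, and Zmynd15, which overlaps Cxcl16, had 11 to 75 counts.

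RefSeq promoter windows on GRCm38.p6 were matched for 6 of the 10 genes (Ccl3, Ccl6, Ccl9, Ccl12, Ccl22 and Cxcl2). Windows for Ccl2, Ccl4, Ccl7 and Cxcl16 were not used here. The bases before the start of Cxcl2, Ccl9 and Ccl3 are shown because Cxcl2 separated LE from SE, Ccl9 was the member that IFN-γ lowered, and Ccl3 had the highest level per length. The windows end at the RefSeq start, and for Cxcl2 the last 28 bases of the window are not printed because they lie within the GENCODE gene. The sequences are written 5′ to 3′ along the gene's own strand, with motif matches in capitals, and cover chr5:90903649-90903870 on the plus strand, chr11:83578637-83578886 on the minus strand and chr11:83649379-83649628 on the minus strand.
Cxcl2: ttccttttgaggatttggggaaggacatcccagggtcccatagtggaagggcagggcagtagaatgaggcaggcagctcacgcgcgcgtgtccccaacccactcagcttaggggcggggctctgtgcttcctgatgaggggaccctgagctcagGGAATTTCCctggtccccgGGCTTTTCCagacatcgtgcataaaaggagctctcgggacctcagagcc
Ccl9: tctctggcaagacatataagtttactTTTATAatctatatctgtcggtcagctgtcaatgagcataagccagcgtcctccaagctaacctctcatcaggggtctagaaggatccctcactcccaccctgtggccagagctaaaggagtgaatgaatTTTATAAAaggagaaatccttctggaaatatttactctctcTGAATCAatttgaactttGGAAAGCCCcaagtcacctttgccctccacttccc
Ccl3: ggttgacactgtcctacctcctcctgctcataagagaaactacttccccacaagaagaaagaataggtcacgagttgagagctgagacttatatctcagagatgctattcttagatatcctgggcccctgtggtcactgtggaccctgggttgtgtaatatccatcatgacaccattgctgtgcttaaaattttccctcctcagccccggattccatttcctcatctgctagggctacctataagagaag

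Motifs were searched on both strands in the 250 bases before the RefSeq start. The κB letters GGNNTTTCC, of the kind NF-κB binds, matched 2 of the 6 windows. Cxcl2 held GGAATTTCC at 96 to 88 bases and GGCTTTTCC at 77 to 69 bases before the RefSeq start, counted with the 28 bases not printed, and Ccl9 held a match on the opposite strand, printed as GGAAAGCCC, at 35 to 27 bases. Of 32851 windows of the same length, 4.93% held a match. The AP-1 letters TGANTCA matched the Ccl9 window alone, as TGAATCA at 53 to 47 bases, and 6.75% of all windows. The TATA box letters TATAAA matched Ccl12 and Ccl9, and 12.4% of all windows. Matches on the 2 strands overlapped in the Ccl9 window. These are matches of letters, not measured binding.

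Total counts were 16.5 to 26.9 M (mega) per library. The mean log2 CPM (a gene's share of the library's total count, scaled to 1 M) of 20 IFN-γ target genes was 0.992 to 1.6 in the 12 libraries labelled without IFN-γ and 6.74 to 7.07 in the 12 labelled with it. The other 24 libraries of the table, whose labels carry HLA and a number in place of a letter, were outside the rule, and 12 of them went against their IFN-γ label by the same measure. Summed macrophage marker genes had 7260 to 12600 CPM in the letter-named libraries. The T cell markers Cd3d, Cd3e, Cd3g and Trac had at most 3 counts in a library, as did the B cell marker Ms4a1, the fibroblast markers Col1a1 and Col1a2 and the neutrophil markers S100a9 and Ly6g. These are a selection. At that level were 6 of 8 T cell, 6 of 8 B cell, 6 of 8 fibroblast and 5 of 8 neutrophil markers. Others were higher, such as the T cell marker Lck with a mean of 18.9 CPM. In bulk RNA, a change in the number of expressing cells and a change in mRNA per cell cannot be told apart. The study calls its replicates biological, and the labels do not say that they were separate cultures. The p-values measure the spread between these libraries, which may be technical.

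The tests below are edgeR's quasi-likelihood test on counts, adjusted by Benjamini-Hochberg over all genes tested. Called genes had an adjusted p below 0.05 and changed by more than 1.5-fold. Errors are SDs over 3 libraries and intervals are 95% intervals of the log2 fold change.

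**Figure D1:**
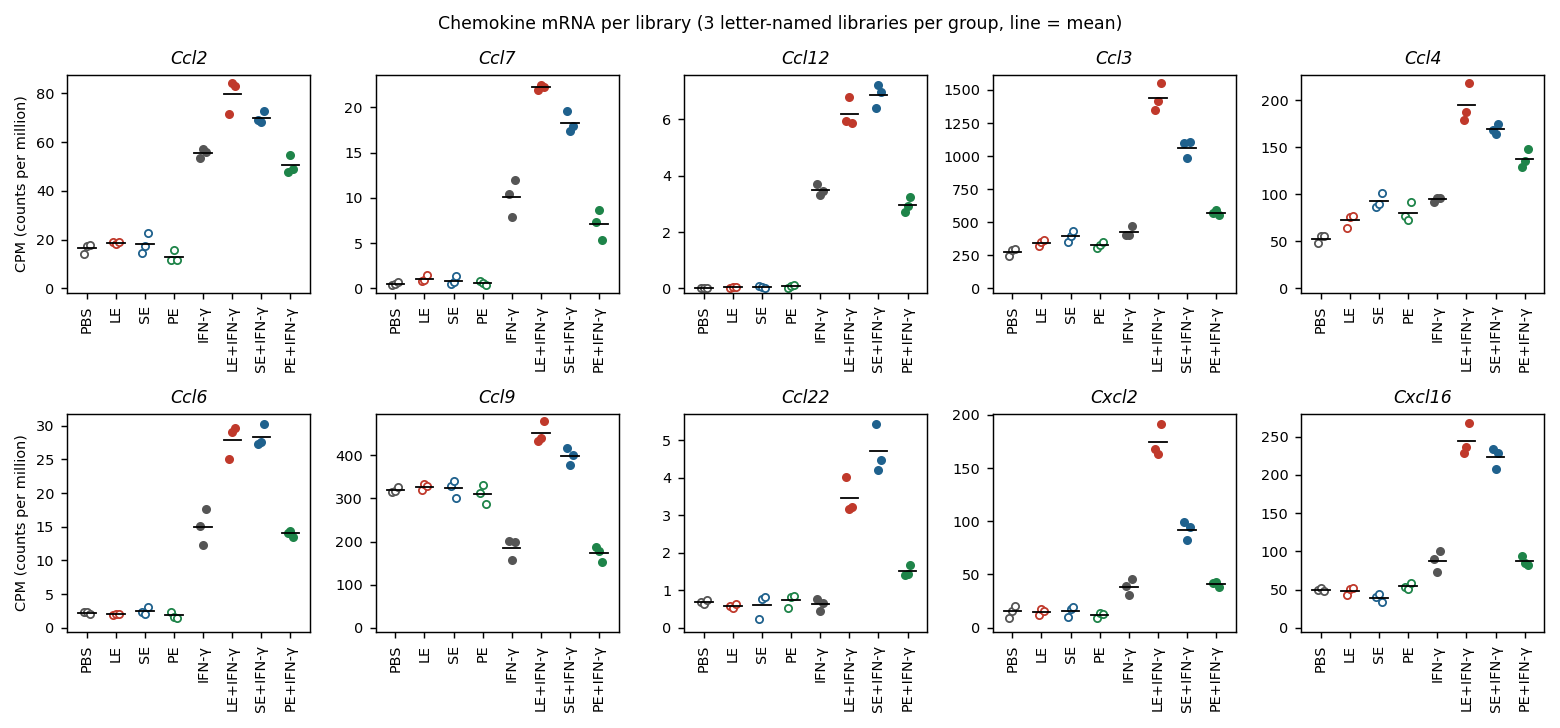
CPM of each gene (vertical axis, linear, its own scale per panel) in the 8 groups (horizontal axis), with 1 point per letter-named library, open without and filled with IFN-γ, and a line at the mean of 3. In all 10 panels LE+IFN-γ and SE+IFN-γ stand highest, Ccl9 falls with IFN-γ alone from a mean of 319 to 186 CPM, and Ccl12 is at or near 0 in all 12 libraries without IFN-γ.

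Levels of different genes are compared per kilobase of merged exons. Ccl3 ranked highest in all 8 groups, from 363 ± 37.8 CPM per kb in PBS to 1880 ± 134 in LE+IFN-γ. Ccl4 and Ccl9 held the next ranks, with 80.3 ± 6.62 and 105 ± 2.04 CPM per kb in PBS and 295 ± 32 and 148 ± 8.28 in LE+IFN-γ. Ccl22 and Ccl12 held the lowest ranks in every group. Cxcl2 was 6th of 10 in PBS at 7.44 ± 2.73 CPM per kb and 4th in LE+IFN-γ at 84.4 ± 7.32. The exons of the 4 annotated Cxcl2 transcripts merge into the whole gene of 2068 bases, which lowers its level per kb. Summed over the 10 genes, the libraries had 684 to 770 CPM in PBS, 844 to 1000 in IFN-γ, 2490 to 2850 in LE+IFN-γ, 1940 to 2150 in SE+IFN-γ and 1050 to 1120 in PE+IFN-γ.

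IFN-γ alone raised 8 of the 10 chemokine genes and lowered Ccl9. Among all genes tested in this comparison, 9.79% were called higher and 8.28% lower. The CCR2 ligands had large changes. Ccl7, an attractant of monocytes, had 0.422, 0.453 and 0.751 CPM in PBS and 10.4, 7.85 and 12 CPM in IFN-γ. The groups did not overlap, and the fold change was 18.8 (log2 4.23, interval 3.64 to 4.82, adjusted p 3.343e-07). Ccl2, the main monocyte attractant, went from 16.4 ± 1.9 to 55.6 ± 1.88 CPM, 3.42-fold. Ccl12 had 0 counts in every PBS library and 3.48 ± 0.191 CPM with IFN-γ, at least 25.9-fold higher against a floor of 3 counts per library. It is counted among the 8, though it passed the filter on low counts only through the groups in which it was high.

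Among Ccl3, Ccl4, Ccl6 and Ccl9 the directions differed. Ccl6 went from 2.25 ± 0.203 to 15 ± 2.68 CPM, 6.72-fold, and Ccl4 from 53 ± 4.37 to 94.6 ± 2.14 CPM, 1.81-fold. Ccl3 had 245, 290 and 299 CPM in PBS and 405, 406 and 474 CPM in IFN-γ. Its groups did not overlap, and it rose 1.56-fold, close to the minimum for a call. Ccl9 had 315, 317 and 326 CPM in PBS and 200, 158 and 200 CPM in IFN-γ. Every IFN-γ library was below every PBS library, and the log2 fold change was -0.76 (interval -0.96 to -0.56, adjusted p 5.519e-05). Cxcl2, an attractant of neutrophils, rose 2.53-fold, from 15.4 ± 5.65 to 38.4 ± 7.94 CPM, and Cxcl16 rose 1.78-fold, from 49.8 ± 2.24 to 87.6 ± 13.8 CPM. Ccl22 was low in both groups, at 14 to 16 counts in PBS and 11 to 19 in IFN-γ, with a log2 fold change of -0.11 (interval -0.89 to 0.67). With the HLA-named libraries added and the kind of name as a term, 1 of the 10 genes was called, beside 40 over all genes.

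Without IFN-γ, Ccl4 was the one of these genes called, with SE and with PE. Ccl12 had 0 to 2 counts in these 12 libraries and was not tested. Libraries could still stand apart from PBS without a call. With LE, every library was above every PBS library for Ccl2 (18.1 to 19.2 CPM against 14.3 to 17.8), Ccl3 (321 to 364 against 245 to 299) and Ccl7 (0.833 to 1.45 against 0.422 to 0.75). For Ccl3 every library was also above PBS with SE (349 to 437 CPM) and with PE (306 to 348). With SE, every library was below PBS for Cxcl16 (33.9 to 43.7 CPM against 47.9 to 52.3, adjusted p 0.09015). The share of all genes whose libraries stood apart in this way was not counted. With LE, 0 of the other 9 genes were called by edgeR and 0 by DESeq2, and 3 had an unadjusted p under 0.05, against 0.0242% of all genes called. With SE and with PE, 1 of the 9 was called higher in each, which was Ccl4, an attractant of T cells and monocytes. Of all genes tested, 0.676% were called higher with SE and 0.652% with PE. Ccl4 had 47.9, 55.7 and 55.3 CPM in PBS, 64.5, 75.5 and 76.5 in LE, 86.7, 89.3 and 101 in SE and 76.6, 72.4 and 91.5 in PE. All 9 peptide libraries were above all 3 PBS libraries. The log2 fold change was 0.88 with SE (interval 0.63 to 1.12, adjusted p 0.001623), 0.69 with PE (0.44 to 0.93, adjusted p 0.005439) and 0.49 with LE (0.25 to 0.74, adjusted p 0.2012). Without replicate 1 neither call held, with adjusted p of 0.0629 for SE and 0.185 for PE. Ccl3, beside Ccl4 on chromosome 11, had log2 fold changes of 0.58 with SE (adjusted p 0.007711) and 0.32 with PE (adjusted p 0.03915), both under the fold minimum. With the HLA-named libraries added, 9 of these genes were called with LE, 0 with SE and 6 with PE, beside 1123, 0 and 932 over all genes.

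In Model A, LE with IFN-γ raised 9 of the 10 chemokine genes over IFN-γ alone, all except Ccl2, against 9.58% of all genes called higher. SE with IFN-γ raised the same 9, against 5.01%. PE with IFN-γ raised Ccl22 alone, against 0.448%. The median log2 fold change of the 10 genes was 1.23 with LE, 1.07 with SE and -0.02 with PE, and that of all genes tested was -0.01, -0.01 and 0.00. The 3 comparisons share the IFN-γ libraries. With the HLA-named libraries added, 9 of these genes were called with LE, 0 with SE and 0 with PE, beside 1048, 7 and 1 over all genes.

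**Figure D2:**
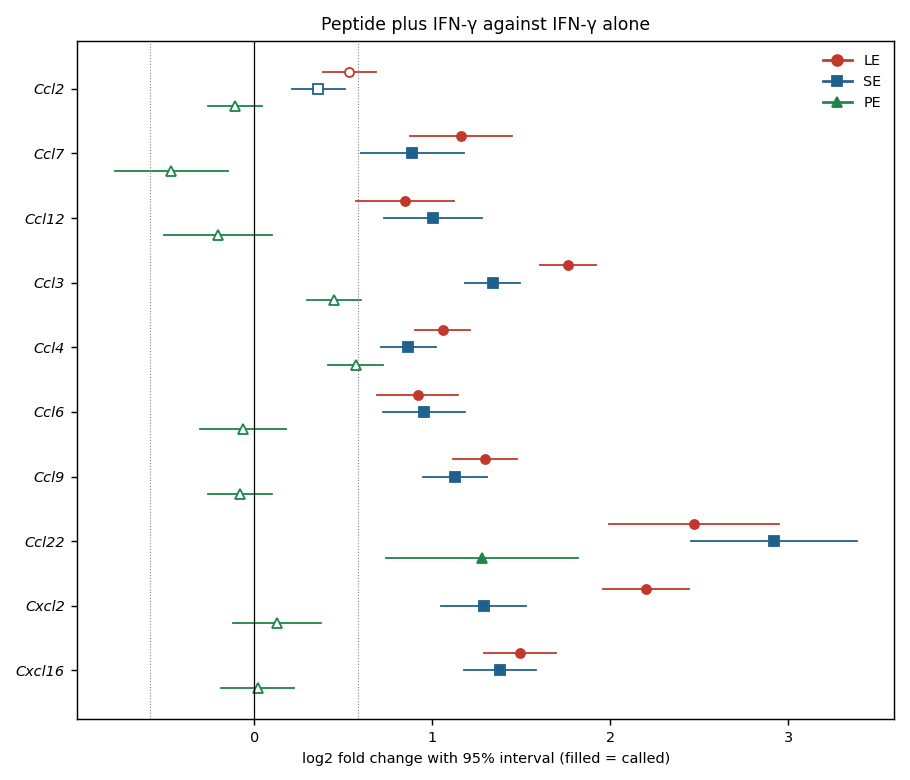
Log2 fold change of each peptide plus IFN-γ against IFN-γ alone (horizontal axis) for the 10 genes (vertical axis), with bars for the 95% interval, dotted lines at a fold change of 1.5 and filled points for called genes. LE and SE points lie to the right of the dotted line for 9 genes, and the single filled PE point is Ccl22 at 1.28.

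Ccl22 and Cxcl2 had the largest fold changes with LE. Ccl22 had 0.779, 0.45 and 0.66 CPM in IFN-γ, 4.03, 3.16 and 3.23 in LE+IFN-γ, 5.45, 4.21 and 4.47 in SE+IFN-γ and 1.4, 1.44 and 1.67 in PE+IFN-γ. The 4 groups did not overlap, though each value rests on 11 to 133 counts. It rose 5.55-fold with LE (log2 2.47, interval 1.99 to 2.95, adjusted p 1.045e-07) and 7.58-fold with SE (log2 2.92, interval 2.46 to 3.39, adjusted p 2.504e-08). With PE the fold change was 2.43 (log2 1.28, interval 0.74 to 1.82, adjusted p 0.0088). That call was lost without replicate 1 (adjusted p 0.0954) and without replicate 3 (0.125), and DESeq2 gave no adjusted p for it.

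Cxcl2 had 38.8, 30.3 and 46.1 CPM in IFN-γ, 168, 164 and 192 in LE+IFN-γ, 99.1, 82.3 and 94.4 in SE+IFN-γ and 42.3, 42.7 and 38 in PE+IFN-γ. LE libraries were highest and SE libraries next, and the PE libraries lay within the IFN-γ range. The fold change was 4.6 with LE (log2 2.20, interval 1.96 to 2.44, adjusted p 1.172e-10) and 2.44 with SE (log2 1.29, interval 1.05 to 1.53, adjusted p 1.412e-07). With PE the log2 fold change was 0.12 (interval -0.12 to 0.37). Cxcl2 is the gene whose printed promoter holds 2 κB matches, and a link between them and these changes was not tested.

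Cxcl16, the membrane-bound ligand of CXCR6, had 89.6, 72.9 and 100 CPM in IFN-γ, 228, 236 and 268 in LE+IFN-γ, 234, 208 and 229 in SE+IFN-γ and 94.5, 85.2 and 81.5 in PE+IFN-γ. The LE and SE libraries overlapped each other and stood above all IFN-γ and PE libraries. It rose 2.82-fold with LE and 2.6-fold with SE, and the PE difference was 0.02 (interval -0.19 to 0.22) on the log2 scale.

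Of the genes in the second chromosome 11 cluster, Ccl3 had 1349, 1415 and 1551 CPM in LE+IFN-γ, 1099, 987 and 1106 in SE+IFN-γ and 567, 594 and 556 in PE+IFN-γ, against 405 to 474 CPM in IFN-γ. The 4 groups were ordered LE, SE, PE and IFN-γ with no overlap. Ccl3 rose 3.4-fold with LE (adjusted p 1.421e-11) and 2.53-fold with SE (adjusted p 5.982e-10), and its 1.36-fold difference with PE (adjusted p 0.003909) was under the fold minimum. Ccl9 had 433, 440 and 480 CPM in LE+IFN-γ, 418, 378 and 400 in SE+IFN-γ and 187, 178 and 153 in PE+IFN-γ. Its LE and SE libraries exceeded both the IFN-γ libraries and all PBS libraries, and its PE libraries overlapped those with IFN-γ alone. The rise was 2.45-fold with LE (adjusted p 2.255e-09) and 2.18-fold with SE (adjusted p 2.495e-08). Ccl4 rose 2.08-fold and 1.82-fold, and Ccl6 1.89-fold and 1.94-fold. With PE, Ccl4 differed by 0.57 on the log2 scale (adjusted p 0.0009753), just under the fold minimum, and it passed that minimum without replicate 1 (0.59) and without replicate 2 (0.59).

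Of the CCR2 ligands, Ccl2 had the smallest fold change of the 10 genes with LE and with SE. It had 71.5 to 84.1 CPM in LE+IFN-γ and 68.1 to 72.8 in SE+IFN-γ, against 53.5 to 57.2 in IFN-γ, with fold changes of 1.45 (adjusted p 7.175e-06) and 1.28 (adjusted p 0.0007883) that were under the minimum. Ccl7 rose 2.23-fold with LE and 1.85-fold with SE. Ccl12, at 3.48 ± 0.191 CPM in IFN-γ, rose 1.8-fold with LE to 6.19 ± 0.523 CPM and 2.01-fold with SE to 6.86 ± 0.429. With PE, Ccl7 had a log2 fold change of -0.47 (interval -0.79 to -0.15, adjusted p 0.05734), which without replicate 2 became -0.79 with an adjusted p of 0.00324.

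Marker genes moved in the same comparison. Of 9 macrophage markers tested, 3 rose with LE (Adgre1 by 0.93, Itgam by 0.80 and Cybb by 0.62 on the log2 scale) and 1 with SE (Adgre1 by 0.65). The sum of the 10 markers was 7950 to 8630 CPM in IFN-γ, 9640 to 10500 in LE+IFN-γ, 8490 to 8840 in SE+IFN-γ and 7260 to 7490 in PE+IFN-γ. Of the 8 neutrophil markers, Mpo and Ngp rose with LE and SE, from low levels, and the whole list summed to 0.0938 to 2.01 CPM over the 24 libraries, with Ly6g at 0. Of the 8 fibroblast markers, Pdgfra rose with LE and SE, and the list summed to 0.283 to 1.88 CPM, with Lum at 0. With IFN-γ alone, 0 of the 8 neutrophil and 0 of the 8 fibroblast markers were tested. Mpo, Ngp and Pdgfra passed the filter on low counts in Model A only with the groups of peptide plus IFN-γ. The 8 T cell markers summed to 10.7 to 29.4 CPM, of which Lck had a mean of 18.9 CPM, with Cd8a at 0, and the 8 B cell markers to 0 to 0.362 CPM. Their part in the chemokine result was not tested.

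In Model B, IFN-γ was compared with and without the same peptide. Of the 10 genes, 9 rose with LE, SE and PE alike, all except Ccl9, against 19.1%, 15.1% and 12.1% of all genes called higher. The 9 include Ccl12, which passed the filter on low counts only through the groups in which it was high. Ccl9 behaved apart from the others. It went from 328 ± 7.61 to 451 ± 25.2 CPM with LE (log2 0.44, adjusted p 8.519e-06) and from 324 ± 20.5 to 398 ± 20.1 with SE (log2 0.26, adjusted p 0.002684), both under the fold minimum. With PE it fell from 310 ± 22.4 to 172 ± 17.4 CPM (log2 -0.90, interval -1.04 to -0.76, adjusted p 8.609e-10), against 8.82% of all genes called lower. Cxcl2 rose 11.4-fold with LE, 5.76-fold with SE and 3.3-fold with PE. Ccl7 rose 21-fold, 21-fold and 11-fold. Ccl12 was at least 43-fold higher with LE, 46.5-fold with SE and 19.7-fold with PE, against floors of 3 counts per library. The PE call of Cxcl16 (1.55-fold) was close to the fold minimum and was lost without replicate 1 and without replicate 2 (log2 0.57 and 0.58). With the HLA-named libraries added, 0 of these genes were called with LE, 0 with SE and 1 with PE, beside 663, 4 and 882 over all genes.

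**Figure D3:**
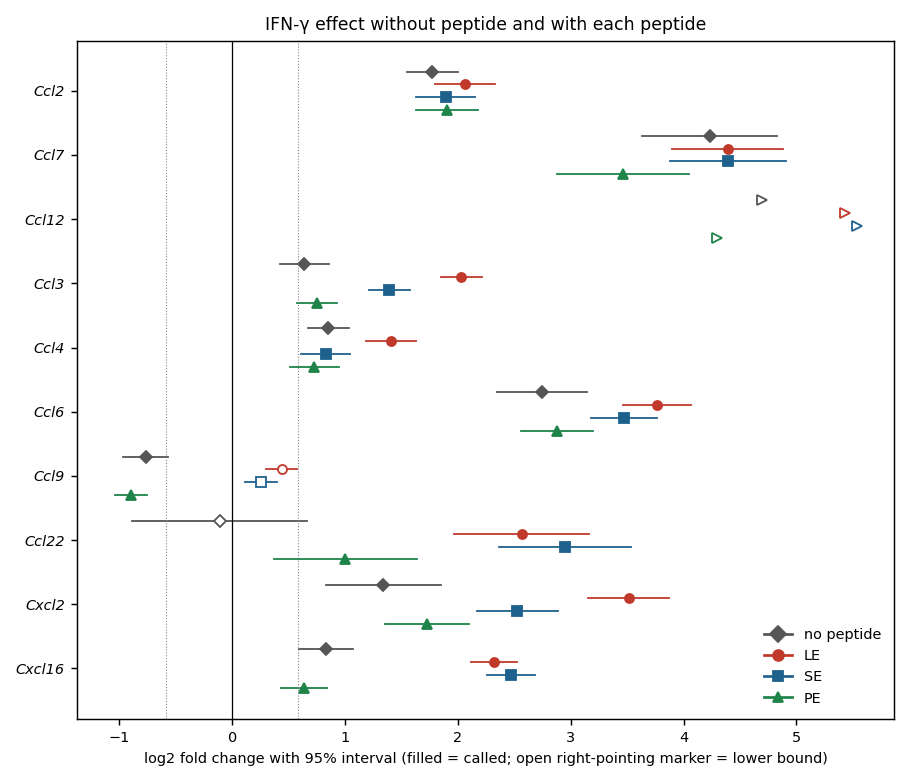
Log2 fold change of IFN-γ without peptide and with each peptide (horizontal axis) for the 10 genes (vertical axis), with 95% intervals, filled points for called genes and open right-pointing markers for the lower bounds of Ccl12. Ccl9 lies below 0 without peptide (-0.76) and with PE (-0.90) and above 0 with LE (0.44) and SE (0.26).

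Whether the IFN-γ effect differed with a peptide was tested as an interaction in a fit of all 24 libraries. With LE and with SE, 6 of the 10 genes had a larger IFN-γ effect than without peptide, Ccl3, Ccl6, Ccl9, Ccl22, Cxcl2 and Cxcl16, against 11.3% and 5.08% of all genes called higher. The log2 difference of the IFN-γ effect for Ccl22, a ligand of CCR4, was 2.67 with LE (interval 1.76 to 3.59, adjusted p 5.279e-05) and 3.07 with SE (2.16 to 3.97, adjusted p 3.095e-05). That of Cxcl2 was 2.17 with LE (1.54 to 2.80) and 1.19 with SE (0.56 to 1.82), and that of Ccl9 was 1.20 with LE (0.97 to 1.43) and 1.03 with SE (0.80 to 1.26). The SE call of Cxcl2 was lost without replicate 2 (adjusted p 0.0608), and that of Ccl6 without replicate 1 (0.187) and without replicate 2 (0.293). The LE value of Ccl4, 0.56, was under the fold minimum and passed it without replicate 1 (0.59). For Ccl2 the difference was 0.29 with LE (interval -0.07 to 0.65) and 0.12 with SE (-0.24 to 0.49), and for Ccl7 it was 0.16 (-0.81 to 1.12) and 0.17 (-0.81 to 1.15). The interaction of Ccl12 cannot be read, because its groups without IFN-γ were at the floor. With PE, 0 of the 10 genes were called by edgeR and 0 by DESeq2, 2 had an unadjusted p under 0.05, and 0% of all 13096 genes were called. The 2 were Ccl22 (log2 1.10, interval 0.18 to 2.03) and Ccl12, whose interaction cannot be read. With the HLA-named libraries added, 0 of the 10 genes were called with any of the peptides, beside 1, 0 and 1 over all genes with LE, SE and PE.

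**Figure D4:**
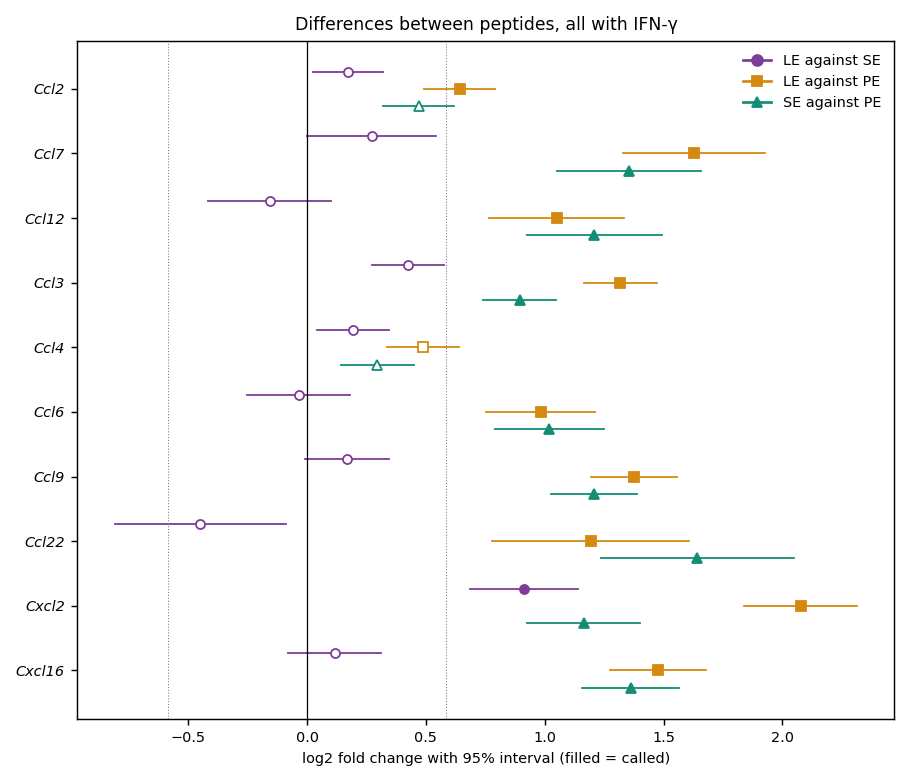
Log2 fold change between peptides, all with IFN-γ (horizontal axis), for the 10 genes (vertical axis), with 95% intervals, dotted lines at a fold change of 1.5 and filled points for called genes. Between LE and SE the single filled point is Cxcl2 at 0.91, while LE and SE exceed PE by 0.89 or more for Ccl3, Ccl6, Ccl7, Ccl9, Ccl12, Ccl22, Cxcl2 and Cxcl16.

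The 3 peptides were set against each other at the same dose and time with IFN-γ, in 3 pairs. Between LE and SE, 1 of the 10 genes was called higher with LE, against 3.31% of all genes, and 0 lower. It was Cxcl2, 1.88-fold higher with LE (log2 0.91, interval 0.69 to 1.14, adjusted p 1.829e-05). Ccl3 was 1.34-fold higher with LE (adjusted p 0.0003307) and Ccl4 1.14-fold (adjusted p 0.04456), while Ccl22 was lower with LE by a log2 difference of -0.45 (interval -0.81 to -0.09, adjusted p 0.04907), all under the fold minimum. For the remaining 6 genes the difference did not pass the threshold. Its interval was -0.25 to 0.18 for Ccl6, -0.08 to 0.31 for Cxcl16 and -0.42 to 0.10 for Ccl12. It was -0.01 to 0.34 for Ccl9. For Ccl2 (0.03 to 0.32, adjusted p 0.06244) and Ccl7 (7e-04 to 0.54, adjusted p 0.1097) the interval lay above 0.

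Against PE, LE was higher for 9 of the 10 genes, all except Ccl4 (log2 0.49), against 12.7% of all genes called higher. SE was higher than PE for 8, all except Ccl2 (0.47) and Ccl4 (0.30), against 5.25%. The largest differences of LE from PE were 4.22-fold for Cxcl2 and 3.09-fold for Ccl7, and of SE from PE they were 3.12-fold for Ccl22 and 2.57-fold for Cxcl16. With the HLA-named libraries added, the pair of LE and SE had 4 called genes, that of LE and PE 5, and that of SE and PE 2.

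In order of mean CPM, LE+IFN-γ was highest for Ccl2, Ccl3, Ccl4, Ccl7, Ccl9, Cxcl2 and Cxcl16, and SE+IFN-γ for Ccl6, Ccl12 and Ccl22. The libraries of these neighbours overlapped for Ccl2, Ccl6, Ccl12 and Cxcl16. IFN-γ and PE+IFN-γ were neighbours for every gene except Ccl22 and overlapped for Ccl2, Ccl6, Ccl7, Ccl9, Cxcl2 and Cxcl16. Neighbours in that order among the 4 groups without IFN-γ overlapped for each gene except Ccl3 and Ccl4, whose PBS libraries lay below the rest.

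Other chemokine ligands were measured beside these 10. Of 27, 19 had at most 3 counts in every library and 8 were tested in Model A. With LE 5 rose and 1 fell, with SE 5 rose, and with PE 1 rose. Ccl5, an attractant of T cells and monocytes, had 8.17 ± 0.641 CPM in IFN-γ, 31.5 ± 0.954 in LE+IFN-γ, 81.2 ± 7.73 in SE+IFN-γ and 14.7 ± 0.295 in PE+IFN-γ. It rose with all 3 peptides and was lower with LE than with SE (log2 -1.38, adjusted p 5.434e-09), opposite to Cxcl2. The CXCR3 ligands Cxcl9, Cxcl10 and Cxcl11 rose with LE by 1.68, 1.76 and 2.22 and with SE by 1.75, 1.37 and 2.34 on the log2 scale. The others were Cxcl14, which rose with LE and SE, and Pf4, which fell with LE by 1.23 on the log2 scale, both named after their values were seen.

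Few receptors of the 10 ligands were measured. Of 11, 6 had at most 3 counts in every library, Ccr4 and Cxcr6 among them. Ccr2, the receptor of Ccl2, Ccl7 and Ccl12, had 2.99 ± 0.468 CPM in PBS and 8.21 ± 0.556 in IFN-γ (log2 1.47, adjusted p 5.177e-05), and no Model A comparison called it. Ccr1 had 9.23 ± 0.698 CPM in IFN-γ and 10.6 ± 0.896 in LE+IFN-γ. Cxcr1 had 0 counts in the IFN-γ libraries, 9 to 20 in LE+IFN-γ and 7 to 12 in SE+IFN-γ, and the groups without IFN-γ had 0 to 2. It was the 1 receptor called in Model A with LE and with SE, and it passed the filter on low counts only through the groups in which it was high.

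Of 20 NF-κB and AP-1 regulators, 5 rose in Model A with LE, 5 with SE and 0 with PE, where 2 passed the adjusted p alone. The median log2 fold change of the 20 was 0.126 with LE, 0.321 with SE and 0.025 with PE. With IFN-γ alone 4 of the 20 rose and 6 fell. Tnfaip3, which restrains NF-κB signalling, rose by 1.52 with LE and 1.29 with SE on the log2 scale, and Nfkbiz, a nuclear IκB protein, by 1.35 and 0.66. Jun rose by 0.95 and 0.71 and Atf3 by 0.87 and 0.68. Tnfaip3 and Jun had fallen with IFN-γ alone, by 0.86 and 1.51, whereas Nfkbiz and Atf3 had risen by 1.60 and 1.20. Between LE and SE, 1 of the 20 regulators was called higher with LE and 1 lower, with a median log2 fold change of -0.064. The higher one was Nfkbiz (log2 0.69, adjusted p 0.0004472).

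Of 8 factors that control the decay of chemokine and cytokine mRNA, 4 rose in Model A with LE, 3 with SE and 0 with PE, where 2 passed the adjusted p alone. Zfp36l2 rose by 1.57 and 1.03 on the log2 scale, Zfp36, which binds AU-rich elements, by 0.90 and 0.89, and Zc3h12a, an RNase, by 1.18 and 0.64. Rc3h1 rose by 1.09 with LE and differed by 0.46 with SE. Of 10 proteases that cut chemokines, 6 were tested in Model A, and 3 rose with LE, 2 with SE and 0 with PE, where 1 passed the adjusted p alone. Mmp9 fell by 1.72 with IFN-γ alone and rose by 0.86 with LE and 0.60 with SE. Mmp14 rose by 3.13 with LE and 1.78 with SE, and Mmp12 by 1.51 with LE. Both were low, with means of 0.5 CPM for Mmp14 and 1.03 CPM for Mmp12 over the 24 libraries. With IFN-γ alone 4 of the 10 proteases were tested. Some of the 6 thus passed the filter on low counts only with the groups of peptide plus IFN-γ. Adam17 fell by 0.99 with IFN-γ alone and differed by 0.47 with LE, under the fold minimum.

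Of 20 IFN-γ target genes, 20 rose with IFN-γ alone, with a median log2 fold change of 3.45. In Model A 5 rose and 1 fell with LE, 2 rose and 2 fell with SE, and 0 were called with PE, where 5 passed the adjusted p alone. Their medians were 0.00, -0.20 and -0.01, beside 1.23, 1.07 and -0.02 for the 10 chemokine genes. These medians are descriptions of the lists. Of 7 osteoclast markers tested, 5 fell with IFN-γ alone, and 2 rose in Model A with LE and with SE.

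Across the 24 libraries, the log2 CPM of Ccl2 and Ccl7 correlated at 0.985, of Ccl6 and Ccl7 at 0.98 and of Ccl2 and Ccl6 at 0.979. The lowest value was that of Ccl9 and Ccl12, at -0.126. The libraries of 1 group share their treatment, so these values describe the groups' order. Among 8618 genes with a mean of at least 10 CPM, the genes most like each of 7 members were found by the same measure. Plk2 (0.989) and Myc (0.989) were most like Cxcl2, and Zbtb17 (0.983) and Dusp5 (0.977) most like Ccl3. For Cxcl16 they were Tatdn2 (0.981), Dusp1 (0.979) and Pim1 (0.978), and for Ccl9 Gpr137b-ps (0.967), Sdc1 (0.954) and Gpr137b (0.944). Ifi204 (0.988), Zbp1 (0.985) and Aqp9 (0.985) led for Ccl2, Kcmf1 (0.992), Zbp1 (0.991) and Sp140 (0.99) for Ccl6, and Tnfrsf12a (0.961) for Ccl4.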

How the data were processed

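Polyadenylated RNA of RAW264.7 cells was sequenced single-ended. The authors counted uniquely aligned reads per gene with featureCounts on GENCODE M12 (GRCm38.p5) and deposited 1 table of raw read counts with 49568 genes and 48 libraries, which was used without change. The aligner and the strand setting of the counting are not given in the sources used here. Poly(A) selection leaves out transcripts without a tail, and reads shared by near-identical copies are not counted. Of the gene symbols 26 had the form of a date and stayed in the fits unnamed. Each of the 48 columns was matched to 1 sample by its name. HLA-named columns stand in the table beside letter-named columns of other groups than their labels give, and the labels were kept.

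The 24 letter-named libraries (16.5 to 26.9 M counts) were tested with edgeR 4.0.16 in R 4.3.3 (quasi-likelihood test, TMM scaling, filterByExpr, Benjamini-Hochberg), in the fits of the groups of each model, and the code was tested on simulated data. Levels are CPM of the library's total. A group at 3 counts or fewer in every library was taken as at the floor, and bounds against it cover counting error only. Library pairs were compared by chi-square per degree of freedom, which was at least 3.89, so each library was counted as 1 replicate.

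The 10 genes and all gene lists were chosen with earlier results of these data known. All 10 members are named, with up to 3 genes most like each member of at least 10 CPM by Pearson's r of log2 CPM, and up to 4 genes of each other list, those called in the most of the 16 comparisons. Alternatives were DESeq2 1.42.0, RLE size factors, no filter on low counts, no fold minimum, a single fit of 24 libraries, a replicate block, all 48 libraries, and leaving out each replicate number. Some named items are not reported here. Positions are from GENCODE M21 and promoters from RefSeq.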

Additional observations from a re-analysis of the deposited data

Results flagged for a closer look

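The interaction test found 12 differences of the IFN-γ effect between cells with a peptide and cells without, 6 with LE and 6 with SE. Of all genes tested, 11.3% were called higher with LE and 5.08% with SE. With LE, the log2 difference was 1.39 for Ccl3, 1.01 for Ccl6, 1.20 for Ccl9, 2.67 for Ccl22, 2.17 for Cxcl2 and 1.49 for Cxcl16, with edgeR adjusted p from 3.894e-08 (Ccl9) to 0.001572 (Ccl6). With SE it was 0.76 for Ccl3, 0.73 for Ccl6, 1.03 for Ccl9, 3.07 for Ccl22, 1.19 for Cxcl2 and 1.65 for Cxcl16, with adjusted p from 1.643e-07 (Cxcl16) to 0.02771 (Ccl6). The SE call of Cxcl2 was lost without replicate 2 (edgeR adjusted p 0.0608). That of Ccl6 was lost without replicate 1 (0.187) and without replicate 2 (0.293). With all 48 libraries 0 members were called with LE and 0 with SE. Ccl9 is the gene in which the direction turned, as IFN-γ lowered it without peptide.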

How the results depend on the processing

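Each of 157 values for single genes kept its direction and its side of the threshold with RLE size factors, with no filter on low counts and with the replicate block, and 156 with DESeq2. Replicate numbers did not pair the libraries by the rule that every pair correlates over 0.1 (20 of 84 did, from -0.109 to 0.232), though for LE and PE alone all 3 pairs did (0.121, 0.102 and 0.141). The replicate block changed no member's call, and with the replicate block 9 members were called in Model A with LE, as without it. Without a fold minimum, 2 members were called with SE alone, 2 with PE alone, 3 in Model A with PE and 4 between LE and SE. A single fit of 24 libraries called 2 with SE alone and 2 with PE alone, and DESeq2 called 0 in Model A with PE. Leaving out a replicate number gave 0 to 2 with SE alone, 0 to 1 with PE alone and 0 to 3 in Model A with PE.

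With all 48 libraries, in which 12 go against their IFN-γ label, the members called were 1 for IFN-γ, 9, 0 and 6 for LE, SE and PE alone, 0 and 0 in Model A with SE and PE, 0, 0 and 1 in Model B, 4, 5 and 2 between LE and SE, LE and PE, and SE and PE, and 0 and 0 for the interactions with LE and SE. There 24 values that were called with 24 or with 48 libraries turned direction. Another 22 values changed sign without a call in either setting, and the cause was not tested. The 24 were Ccl3 with IFN-γ alone (-0.072), Ccl6 (2.78), Ccl22 (1.55) and Cxcl16 (1.93) with LE alone, and Ccl2 (1.24) and Ccl6 (2.45) with PE alone. In Model B they were Ccl3 (-0.079), Ccl4 (-0.32) and Cxcl16 (-0.23) with LE, and Ccl2 (-0.14), Ccl3 (-0.83), Ccl4 (-0.67), Ccl6 (-0.019), Ccl7 (-1.18), Ccl22 (-1.17), Cxcl2 (-1.20) and Cxcl16 (-0.79) with PE. Between SE and PE they were Ccl6 (-0.86), Ccl7 (-0.57) and Ccl12 (-0.84), and in the LE interaction Ccl6 (-2.32), Ccl9 (-0.32), Ccl22 (-0.01) and Cxcl16 (-1.20).

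Counts over all genes fell with all 48 libraries from 3410 to 4 in Model B with SE, from 940 to 7 in Model A with SE, and from 2471 to 1 and 1042 to 0 for the interactions with LE and SE. Between LE and PE they fell from 2752 to 374, and between SE and PE from 966 to 439. With LE alone 3 genes were called, 57 without the filter, 7 in the single fit, 7 with the replicate block, 1123 with all 48 libraries and 0 to 1 without a replicate. With SE alone 239 were called and 3 to 419 without a replicate, with PE alone 389 and 0 to 1022. In Model A with PE 80 were called, 31 with DESeq2, 152 without the filter, 24 in the single fit, 1 with all 48 libraries and 4 to 250 without a replicate. Depth limits Ccl12 and Ccl22, at under 10 CPM in the 24 letter-named libraries, and Ccl7, at 6 to 29 counts without IFN-γ.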
